A study of Mus musculus with 6 samples.

Results

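The 36 genes described here encode the enzymes that make, use and recycle glutathione: 22 soluble glutathione transferases, 3 microsomal transferases, 7 glutathione peroxidases, 3 genes of glutathione synthesis and glutathione reductase. They were selected by name from the 30777 genes of the deposited table. The rule took every numbered Gsta, Gstm, Gstp, Gstt, Gsto, Gstk, Gstz, Mgst and Gpx gene except 4 pseudogenes, together with Gclc, Gclm, Gss and Gsr. The colon of BALB/c mice, an inbred strain, was the tissue sequenced, in 6 RNA libraries. The group called 5-Fu has 3 libraries of mice that received 5-fluorouracil, a drug that blocks thymidylate synthesis, and the group called 5-Fu+BBR has 3 of mice that received it together with the plant alkaloid berberine. All mice thus received 5-fluorouracil, and no group without it was analysed here. Per its design text, the series asked which colon genes are associated with berberine. Dose, time, age and sex are not in the labels, nor is it stated there that each library is a different animal, so the spread behind the p-values may be technical.

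Glutathione is a tripeptide made in the cytosol by glutamate-cysteine ligase and glutathione synthetase. Transferases attach it to electrophiles such as drugs, carcinogens and lipid peroxidation products, peroxidases use it to reduce peroxides, and glutathione reductase returns its oxidised form to the reduced one. The intestinal epithelium carries transferases of several classes and the epithelial peroxidase Gpx2. Many of these genes are known targets of the transcription factor NRF2, which binds the antioxidant response element.

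The libraries held between 53824752 and 63831168 estimated counts. Levels are in FPKM, which is scaled per transcript length and per depth and so lets genes be compared with each other. A log2 fold change above 0 means higher in 5-Fu+BBR, and it is given ± SE from edgeR's quasi-likelihood test on the counts, with p-values adjusted over all 20101 genes tested. The labelled tissue was borne out by its markers: the 10 epithelial marker genes, such as Epcam and Slc26a3, summed to between 5546 and 6559 FPKM in 5-Fu and between 5357 and 5861 in 5-Fu+BBR, and none was at 0 in all libraries. In CPM, counts scaled to the library by TMM, the groups overlapped for each of these 10 genes, with a median log2 fold change of -0.04. In FPKM, Epcam was higher and Lgals4 lower in 5-Fu+BBR without overlap. Some markers of other tissues moved with the groups. In CPM the groups did not overlap, with 5-Fu+BBR higher, for 7 of 8 smooth muscle genes (735 to 979 FPKM in sum in 5-Fu, 1344 to 1632 in 5-Fu+BBR), 9 of 9 adipocyte genes (6.03 to 18.9, 68.1 to 132), 6 of 6 lymphocyte genes (9.1 to 39.2, 50.3 to 71.9) and 3 of 6 macrophage genes (253 to 311, 386 to 512). The same held for 3 of 6 red blood cell genes and 3 of 11 kidney genes tested. It held for 2 of 8 liver, 1 of 4 small intestine and 0 of 6 neutrophil genes tested. Of all genes tested, 12.3% were higher without overlap. The 6 neutrophil genes summed to 5.28 to 95.4 FPKM and 0.929 to 23.5, the 6 red blood cell genes to 4.37 to 25.2 and 23.1 to 163, the 8 liver genes to 46.4 to 57.7 and 62.0 to 71.0, and 7 small intestine genes to 7.59 to 10.7 and 11.3 to 17.8. Neither the liver nor the small intestine list moved as a whole: 5 of 8 liver genes had negative log2 fold changes (median -0.33), Alb among them, while Ttr and Cyp2e1 were positive, and of 4 small intestine genes tested 2 were positive and 2 negative, from Apoa4 (-2.08) to Lyz1 (1.32). The 12 kidney genes summed to between 12.1 and 14 FPKM in the 5-Fu libraries and in 5-Fu+BBR replicate 1, but to 154 and 148 in 5-Fu+BBR replicates 2 and 3. No gene of these lists was at 0 in all libraries. The part of these other tissues in the results below was not tested, and in whole tissue fewer cells of a type cannot be told apart from less RNA per cell.

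None of the glutathione genes passed the test. Of the 36, 34 were expressed highly enough to be tested, and 0 had an adjusted p under 0.05 by edgeR, beside 15 of all 20101 genes (0.0746%, with 0.0597% higher and 0.0149% lower). The lowest adjusted p was 0.098, for Gsta4. At an unadjusted p under 0.05, 8 of the 34 differed, 5 lower and 3 higher in 5-Fu+BBR. That is 23.5%, where 15.6% of all genes did, 6.08% lower and 9.48% higher. DESeq2, another test on the same counts, called 6 of the 34, where it called 1226 of the 19312 genes to which it gave an adjusted p (6.35%, with 4.55% higher and 1.8% lower). These 6 were Gsta4, Gsta1, Gsto1 and Gsr, lower in 5-Fu+BBR, and Gstm3 and Gstt1, higher. With limma-voom 0 of the 34 passed and 21 of all genes did (0.104%). In CPM the groups did not overlap for 10 of the 34 genes, 6 lower and 4 higher, or 29.4% beside 21.9% of all genes (9.68% lower and 12.3% higher). Of the 34 log2 fold changes 16 were positive and 18 negative, with a median of -0.06, and the median of all genes tested was 0.01. Leaving out 5-Fu+BBR replicates 2 and 3, the libraries with raised kidney transcripts, sets 3 libraries against 1. From that fit log2 fold changes are given below for some genes. In it the loss of samples cannot be told apart from the loss of those transcripts. The library kept, 5-Fu+BBR replicate 1, was itself above each 5-Fu library in other markers. These were smooth muscle (1344 FPKM in sum), adipocyte (68.1) and lymphocyte genes (50.3). The fit is among the 16 alternative fits over which ranges of adjusted p are given below. When 1 library was left out, 4 to 8 genes were lower and 2 to 6 higher at an unadjusted p under 0.05. Most were lower without 5-Fu replicate 3, 8 of 35 (22.9%, beside 7.34% of all genes). Without 5-Fu replicate 1, 4 of 35 were (11.4%, beside 3.07%). Most were higher without 5-Fu+BBR replicate 1, 6 of 35 (17.1%, beside 8.27% of all genes). Fewest were higher without 5-Fu+BBR replicate 3, 2 of 34 (5.88%, beside 7.89%).

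**Figure D1:**
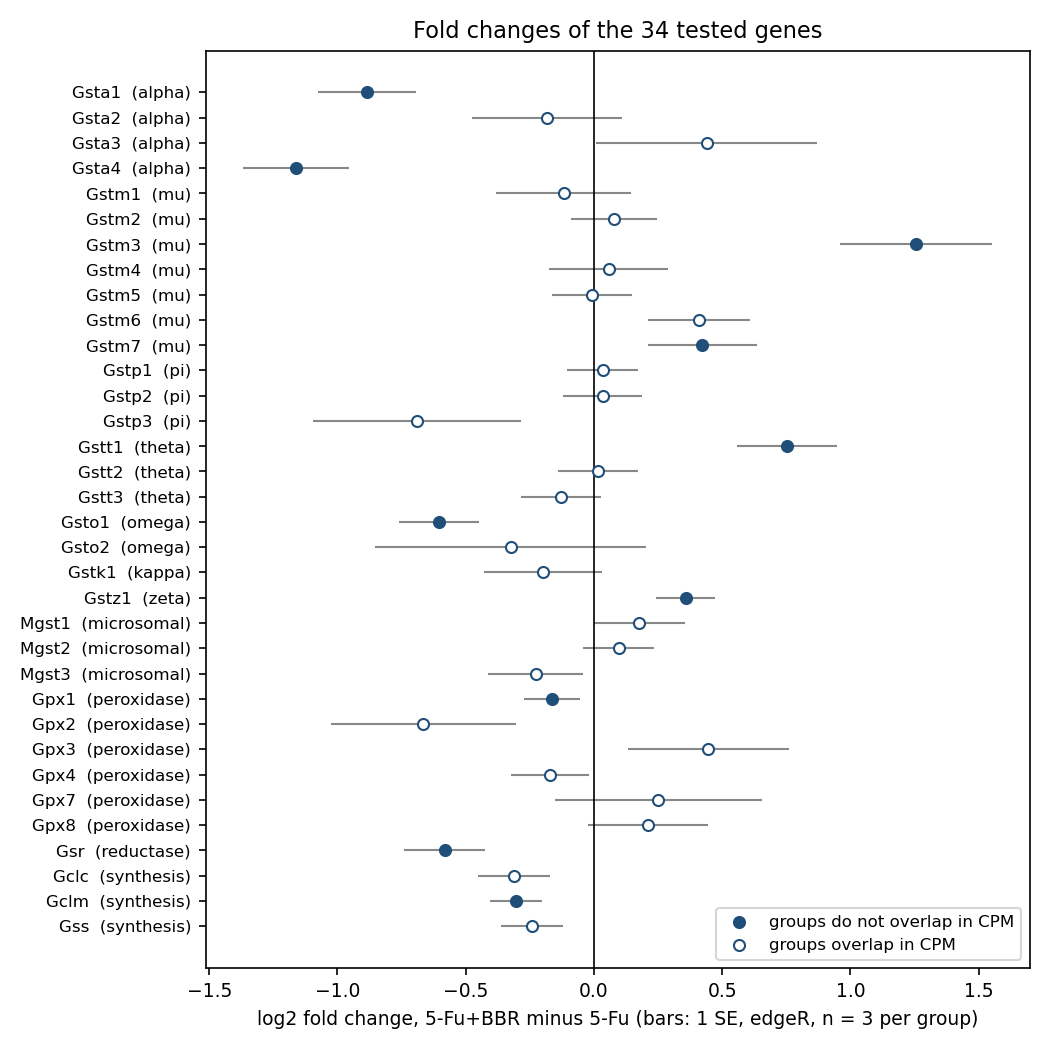
Log2 fold change, 5-Fu+BBR minus 5-Fu, of the 34 tested glutathione genes, ordered by class, with bars of 1 SE from edgeR (n = 3 per group). Filled points mark the 10 genes whose groups did not overlap in CPM, from Gsta4 at -1.16 to Gstm3 at 1.26.

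For 4 of the 8 genes with the smallest p, the RefSeq table (GRCm38.p6) holds a start site at most 13 bases from the gene's 5′ end in the deposited table. The 250 bases before that start are shown 5′ to 3′. Of these genes, 3 had a negative log2 fold change (Gsta1, Gsto1, Gclm) and 1 a positive one (Gstz1). None of the 4 had an adjusted p under 0.05 by edgeR. The windows are chr9:78230419-78230668 (plus strand) for Gsta1, chr19:47854723-47854972 (plus strand) for Gsto1, chr3:122245307-122245556 (plus strand) for Gclm and chr12:87146915-87147164 (plus strand) for Gstz1. Capitals mark matches, on either strand, to the core TGACNNNGC of the antioxidant response element and to GCGTG, the core of the xenobiotic response element bound by the aryl hydrocarbon receptor. Gclm alone of the 4 holds any.
Gsta1: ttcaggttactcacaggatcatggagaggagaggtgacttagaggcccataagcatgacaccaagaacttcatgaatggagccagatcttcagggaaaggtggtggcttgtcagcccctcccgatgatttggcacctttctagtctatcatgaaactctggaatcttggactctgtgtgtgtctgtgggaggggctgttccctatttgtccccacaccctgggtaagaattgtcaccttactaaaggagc
Gsto1: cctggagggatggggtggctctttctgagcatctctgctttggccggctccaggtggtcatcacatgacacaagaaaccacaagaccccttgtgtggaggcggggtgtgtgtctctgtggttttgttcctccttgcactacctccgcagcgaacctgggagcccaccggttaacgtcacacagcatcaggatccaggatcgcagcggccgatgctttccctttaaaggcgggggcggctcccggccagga
Gstz1: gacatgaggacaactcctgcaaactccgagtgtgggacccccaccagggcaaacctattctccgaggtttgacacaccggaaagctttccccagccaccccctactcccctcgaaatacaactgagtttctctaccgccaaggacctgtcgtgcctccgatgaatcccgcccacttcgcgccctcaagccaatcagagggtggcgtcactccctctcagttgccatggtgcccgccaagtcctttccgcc
Gclm: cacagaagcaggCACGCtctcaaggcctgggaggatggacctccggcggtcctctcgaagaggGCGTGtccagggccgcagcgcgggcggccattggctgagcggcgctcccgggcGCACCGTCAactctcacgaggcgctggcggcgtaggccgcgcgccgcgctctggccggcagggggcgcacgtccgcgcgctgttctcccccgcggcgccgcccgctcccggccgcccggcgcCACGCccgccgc
The Gclm window holds 1 antioxidant response core, read on the minus strand as TGACGGTGC, and 3 copies of GCGTG. Of the 36 genes, 32 had a window in the table, and 4 of these (12.5%) held the antioxidant core, where 10.2% of 32851 windows of the same length did. Besides Gclm these were Gsta3 (TGACATTGC), Mgst1 (TGACCGTGC) and Gstm5 (TGACCACGC), whose log2 fold changes were 0.44 ± 0.43, 0.18 ± 0.18 and -0.01 ± 0.16. GCGTG was found in 9 of the 32 windows (28.1%) and in 28.2% of all. Both shares lie near that of all windows, and a match or its absence in these bases says nothing of whether a factor binds.

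In level, the genes differed widely. Mgst3 was highest with a mean of 242 FPKM over the 6 libraries, followed by Gpx1 (153), Gstp1 (138), Gsto1 (106), Gpx2 (105) and Gstm1 (103). These 6 genes made up 59.9% of the summed FPKM of the set. The lowest Mgst3 library, at 195 FPKM, lay above the highest Gpx1 library, at 163, whereas from Gpx1 to Gstm1 each neighbouring pair in this order overlapped over the libraries. Of the others, 15 lay between 10 and 100 FPKM, 12 between 1 and 10 and 3 below 1. Gsto2 was at 0.0908 to 0.201 FPKM. Gpx6, known from olfactory tissue, and Gstt4 were too low to be tested, with at most 15 and 3 estimated counts in any library. The whole set summed to 1674, 1482 and 1390 FPKM in 5-Fu replicates 1 to 3 and to 1247, 1276 and 1421 in 5-Fu+BBR replicates 1 to 3, and these groups overlapped.

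**Figure D2:**
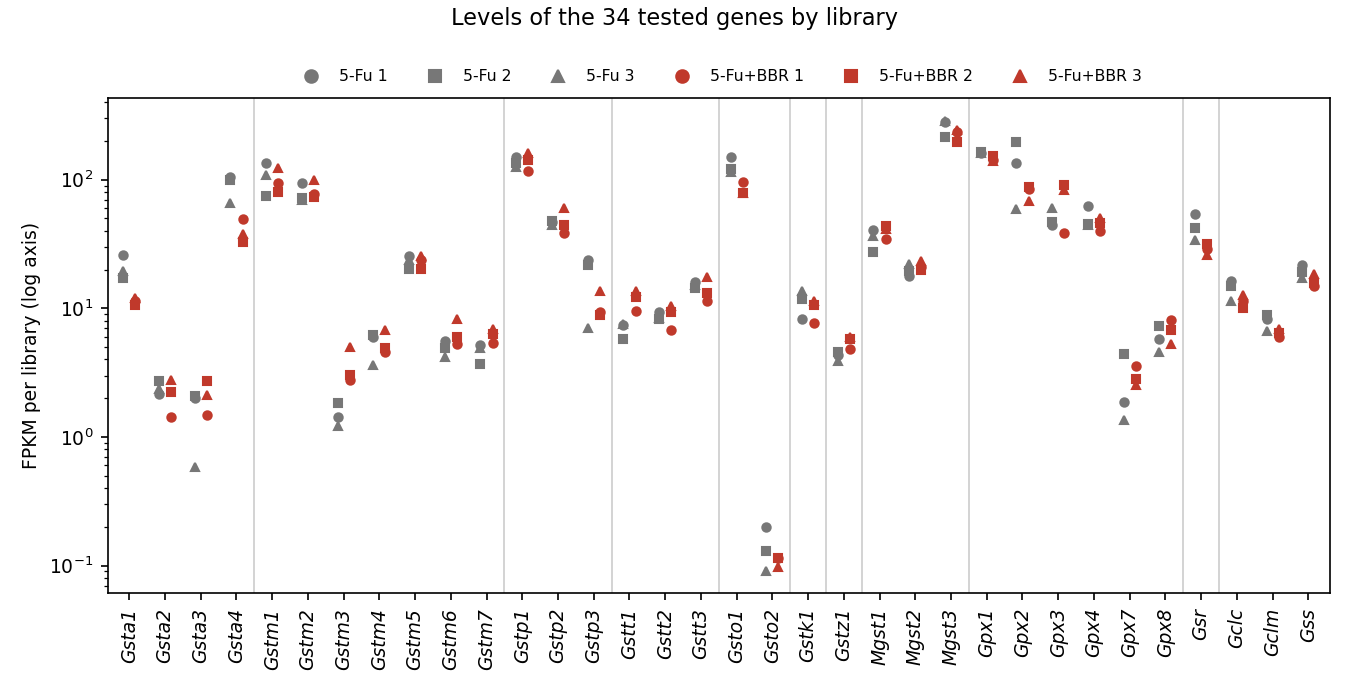
FPKM per library on a log axis for the 34 tested genes, grey for 5-Fu and red for 5-Fu+BBR, with the replicate given by the symbol and grey lines between classes. Mgst3 is highest, Gsto2 lowest, and for Gsta1, Gsta4, Gsto1 and Gsr the 3 red points lie below the 3 grey ones.

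Among the 7 classes of soluble transferases, the summed FPKM was lower without overlap in alpha and omega, higher without overlap in zeta, which is 1 gene, and overlapped in the other 4. The omega sum is nearly all Gsto1, with means of 128.4 of 128.5 FPKM in 5-Fu and 84.4 of 84.5 in 5-Fu+BBR. Alpha transferases detoxify products of lipid peroxidation, and Gsta4 is known for its activity on the aldehyde 4-hydroxynonenal. The 4 genes of the class summed to 135, 121 and 88.6 FPKM in 5-Fu replicates 1 to 3 and to 63.7, 48.3 and 54.5 in 5-Fu+BBR replicates 1 to 3. Each 5-Fu+BBR library was thus below every 5-Fu library, with a ratio of the means of 0.482. Most of this sum was Gsta4, and Gsta1 was the other member for which the groups did not overlap.

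Gsta4 (ENSMUSG00000032348, chromosome 9, 78182774 to 78209349 of GRCm38) was at 105, 99.4 and 66.3 FPKM in the 5-Fu libraries and at 49.3, 32.8 and 37.7 in the 5-Fu+BBR libraries. The highest 5-Fu+BBR library, replicate 1, lay below the lowest 5-Fu library, replicate 3. The difference was 2.24-fold (log2 fold change -1.16 ± 0.21) with an adjusted p of 0.098 by edgeR. By DESeq2 the adjusted p was 3.09e-05, and over the 16 alternatives it ranged from 3.09e-05 to 0.755, with a negative log2 fold change under each of them. Against 5-Fu+BBR replicate 1 alone, the library without raised kidney transcripts, the log2 fold change was -0.82 (adjusted p = 0.755 by edgeR). No stretch of 75 bases of its longest coding transcript occurs in a transcript of another gene.

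Gsta1 (ENSMUSG00000074183, chromosome 9, 78230656 to 78242684) lies close to Gsta4. Its level was 26.1, 17.1 and 19.4 FPKM in 5-Fu and 11.5, 10.6 and 12 FPKM in 5-Fu+BBR. The 3 5-Fu+BBR libraries were close to each other and below all of 5-Fu (log2 fold change -0.88 ± 0.19, adjusted p = 0.119 by edgeR, 0.00199 by DESeq2). The adjusted p ranged from 0.00199 to 0.807 over the alternatives, and without 5-Fu replicate 2 it was 0.0456 by edgeR. The value of Gsta1 by itself is uncertain, because 86.3% of the 75-base stretches of its transcript also occur in another gene, mostly in the predicted gene Gm3776 (76.2%). Gm3776 was itself at 15.1, 16.2 and 18.1 FPKM in 5-Fu and 11.2, 5.96 and 9.96 FPKM in 5-Fu+BBR, a log2 fold change of -0.86 ± 0.26 (adjusted p = 0.199 by edgeR). Summed over Gsta1, Gsta2, Gm3776 and a further copy, Gm10639, the level was 51.6, 38.7 and 49.9 CPM in 5-Fu and 28.8, 21.3 and 29.7 CPM in 5-Fu+BBR, again without overlap. If each read was counted once, a sum of counts would not depend on how reads were split among these 4. How the deposited counts were made is not stated, so this was not tested. The sum of FPKM was 46.2, 36.9 and 41.5 against 25, 19.2 and 26.3, and it depends on the split in part because their lengths differ.

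The other alpha genes were low. Gsta2 (ENSMUSG00000057933), which shares 46.9% of its stretches with other genes, was at 1.42 to 2.75 FPKM over all libraries (log2 fold change -0.18 ± 0.29). Gsta3 (ENSMUSG00000025934), on chromosome 1 and away from the others, was at 2.01, 2.09 and 0.586 FPKM in 5-Fu and 1.47, 2.7 and 2.1 FPKM in 5-Fu+BBR. Its low value in 5-Fu replicate 3 lies apart, and the groups overlapped.

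**Figure D3:**
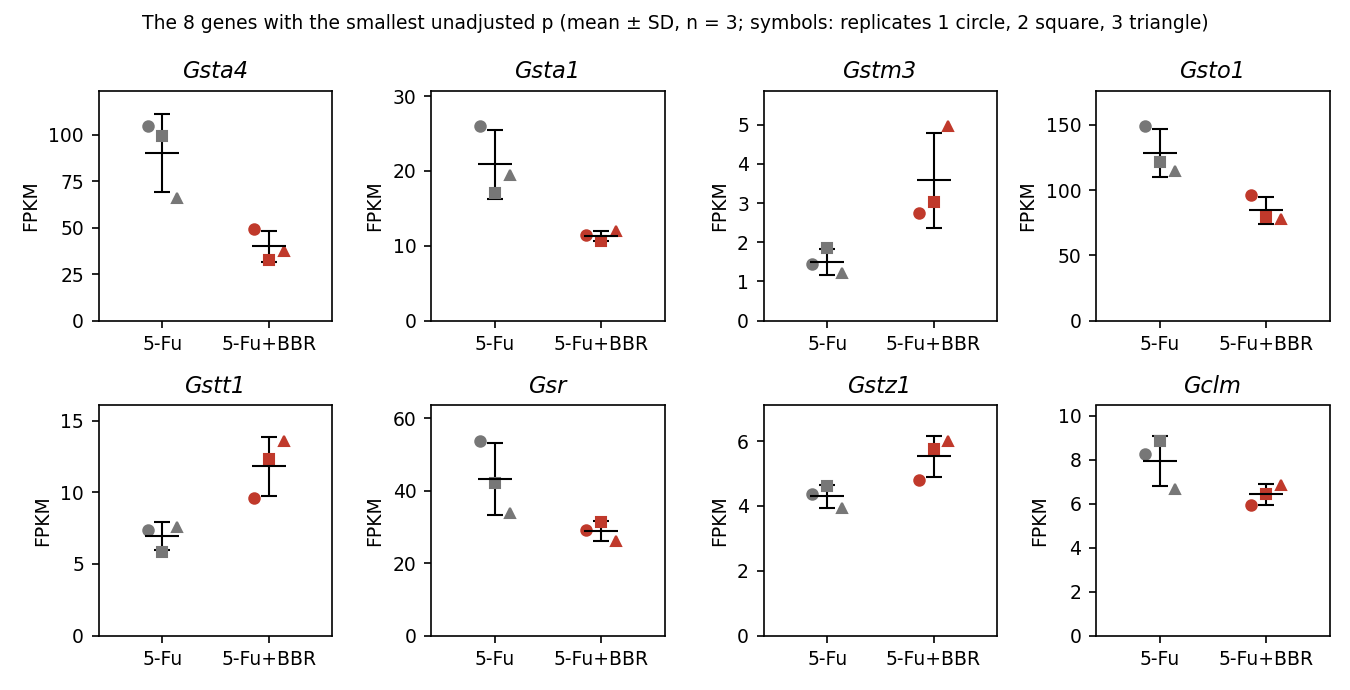
FPKM of the 8 glutathione genes with the smallest unadjusted p, per library (circle, square and triangle for replicates 1, 2 and 3) with the mean and SD of 3 libraries. Gsta4, Gsta1, Gsto1 and Gsr lie lower in 5-Fu+BBR and Gstm3, Gstt1 and Gstz1 higher without overlap, while the groups of Gclm overlap in FPKM.

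Omega transferases differ from the others in a cysteine at the active site and reduce dehydroascorbate and arsenic compounds. Gsto1 (ENSMUSG00000025068, chromosome 19, 47854970 to 47864790) was at 149, 122 and 114 FPKM in 5-Fu and 96.1, 79.1 and 78.1 FPKM in 5-Fu+BBR. All libraries of 5-Fu+BBR were below all of 5-Fu (1.52-fold, log2 fold change -0.60 ± 0.16, adjusted p = 0.153 by edgeR). DESeq2 gave an adjusted p of 0.011, within a range of 0.011 to 0.862 over the alternatives. Against 5-Fu+BBR replicate 1 alone the log2 fold change was -0.38. Its neighbour Gsto2 overlapped between the groups (log2 fold change -0.32 ± 0.53).

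The mu class lies in a cluster of 7 genes on chromosome 3 and conjugates a wide range of aromatic electrophiles. It summed to 273, 183 and 217 FPKM in 5-Fu and 213, 193 and 274 in 5-Fu+BBR, with no separation of the groups. Gstm1 (ENSMUSG00000058135), the highest of the class, was at 135, 74.1 and 109 FPKM in 5-Fu and 94.3, 79.5 and 123 FPKM in 5-Fu+BBR (log2 fold change -0.12 ± 0.26). Gstm2, Gstm4 and Gstm5 also overlapped, with log2 fold changes of 0.08, 0.06 and -0.01.

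Gstm3 (ENSMUSG00000004038, chromosome 3, 107963696 to 107969283) had the largest log2 fold change of the cluster. It was at 1.44, 1.85 and 1.21 FPKM in 5-Fu and 2.75, 3.03 and 4.98 FPKM in 5-Fu+BBR. Every 5-Fu+BBR library lay above every 5-Fu library, and replicate 3 was highest (2.39-fold, log2 fold change 1.26 ± 0.30, adjusted p = 0.141 by edgeR and 0.00421 by DESeq2, range 0.00421 to 0.808). The gene is low and shares 21.6% of its stretches with other genes, so its level is less certain than that of Gsta4. Gstm7 (ENSMUSG00000004035) was at 5.18, 3.66 and 4.95 FPKM against 5.38, 6.36 and 6.95, a narrow separation (log2 fold change 0.42 ± 0.21, adjusted p = 0.384). Gstm6 (ENSMUSG00000068762) was at 5.58, 4.89 and 4.17 FPKM against 5.24, 5.98 and 8.28, and its groups overlapped (log2 fold change 0.41 ± 0.20, adjusted p = 0.371). Without 5-Fu+BBR replicates 2 and 3 the log2 fold change of Gstm3 was 0.92 (adjusted p = 0.808 by edgeR).

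Theta transferases act on small halogenated compounds. Gstt1 (ENSMUSG00000001663, chromosome 10, 75783813 to 75798584) was at 7.38, 5.82 and 7.59 FPKM in 5-Fu and 9.57, 12.3 and 13.6 FPKM in 5-Fu+BBR. The groups did not overlap, and replicates 2 and 3 of 5-Fu+BBR, the libraries with raised kidney transcripts, were the highest (1.68-fold, log2 fold change 0.75 ± 0.19, adjusted p = 0.153 by edgeR). By DESeq2 the adjusted p was 0.0201, the lowest of a range that reached 0.862. Against 5-Fu+BBR replicate 1 alone the log2 fold change was 0.49. Gstt3 (ENSMUSG00000001665), the highest of the class, was at 16, 14.4 and 15.2 FPKM in 5-Fu and 11.4, 13.2 and 17.4 FPKM in 5-Fu+BBR, and Gstt2 was at 8.27 to 9.3 against 6.79 to 10.5. Both overlapped between the groups.

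Gstz1 (ENSMUSG00000021033, chromosome 12, 87147165 to 87164723) of the zeta class is maleylacetoacetate isomerase, an enzyme of tyrosine breakdown. It was at 4.36, 4.61 and 3.92 FPKM in 5-Fu and 4.79, 5.76 and 6.01 FPKM in 5-Fu+BBR. The groups were separate by a small margin (log2 fold change 0.36 ± 0.11, adjusted p = 0.215 by edgeR and 0.126 by DESeq2). Again 5-Fu+BBR replicate 1 was nearest to 5-Fu, and alone it gave a log2 fold change of 0.20. Gstk1 (ENSMUSG00000029864), the kappa transferase of mitochondria and peroxisomes, was at 8.31, 11.8 and 13.6 FPKM against 7.72, 10.7 and 11.4 (log2 fold change -0.20 ± 0.23).

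The pi class did not separate the groups. Gstp1 (ENSMUSG00000060803), a major transferase of epithelia, was at 149, 134 and 126 FPKM in 5-Fu and 117, 142 and 162 FPKM in 5-Fu+BBR, a log2 fold change of 0.03 ± 0.14 (adjusted p = 0.933). Gstp1 shares 57.7% of its stretches with Gstp2, and the sum of both also overlapped, at 335, 290.3 and 312 CPM against 275, 311 and 374. Gstp3 (ENSMUSG00000058216) shares none. It was at 23.6 and 21.6 FPKM in 5-Fu replicates 1 and 2 but at 7.02 in replicate 3, and at 9.35, 8.92 and 13.5 FPKM in 5-Fu+BBR, a log2 fold change of -0.69 ± 0.40 (adjusted p = 0.468). Without 5-Fu replicate 3 the log2 fold change was -1.04 (adjusted p = 0.0991 by edgeR).

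The microsomal transferases are membrane proteins that also take part in leukotriene and peroxide metabolism. Mgst3 (ENSMUSG00000026688) was at 282, 213 and 287 FPKM in 5-Fu and 236, 195 and 242 FPKM in 5-Fu+BBR. The groups overlapped (log2 fold change -0.23 ± 0.18, adjusted p = 0.601). Mgst1 was at 27.2 to 40.8 against 34.7 to 43.3 FPKM and Mgst2 at 17.8 to 22.0 against 19.9 to 23.1 FPKM, with log2 fold changes of 0.18 ± 0.18 and 0.10 ± 0.14.

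Of the 6 peroxidases tested, 0 passed and 0 had an unadjusted p under 0.05. Gpx1 (ENSMUSG00000063856, chromosome 9, 108338903 to 108340343), the general cytosolic peroxidase, was at 162, 163 and 161 FPKM in 5-Fu. In FPKM this was the smallest spread, relative to its mean, of the 36 genes in either group. This did not hold in CPM, where Gpx1 was at 275, 262 and 296 in 5-Fu and Gstz1 at 26.2, 26.2 and 25.6. In 5-Fu+BBR Gpx1 was at 143, 153 and 140 FPKM, below each 5-Fu library, but the difference was small (1.12-fold, log2 fold change -0.16 ± 0.11, adjusted p = 0.523). Gpx2 (ENSMUSG00000042808), the peroxidase of the gut epithelium, varied most among the abundant genes. It was at 133, 197 and 58.9 FPKM in 5-Fu and 83.9, 88.3 and 68.0 FPKM in 5-Fu+BBR, a log2 fold change of -0.66 ± 0.36 (adjusted p = 0.43). The 5-Fu group spanned more than the whole of 5-Fu+BBR. Without 5-Fu replicate 3 the log2 fold change was -0.98, with an unadjusted p of 0.00108 and an adjusted p of 0.0917 by edgeR. Its low library, replicate 3, was also the one in which Gstp3, Gsta3 and the neutrophil markers (5.28 FPKM in sum, beside 95.4 and 78.1 in replicates 1 and 2) were lowest within 5-Fu. That library was lowest within 5-Fu for many other genes of the set too, Gsta4, Gsto1 and Gsr among them. For Mgst3 and Gpx3 it was the highest. A link between these values was not tested.

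Gpx3 (ENSMUSG00000018339), the secreted peroxidase of plasma that is made mainly in the kidney, was at 44.8, 47.2 and 60.3 FPKM in 5-Fu and 38.6, 90.1 and 82.8 FPKM in 5-Fu+BBR. Both high libraries are those with kidney marker sums of 154 and 148 FPKM, while 5-Fu+BBR replicate 1, with 14 FPKM, had the lowest Gpx3 of all. The red blood cell markers were also higher in those libraries, at 23.1, 73.7 and 163 FPKM in 5-Fu+BBR replicates 1 to 3. A link of Gpx3 to either list was not tested. The log2 fold change was 0.45 ± 0.31 (adjusted p = 0.547 by edgeR). Against 5-Fu+BBR replicate 1 alone its direction turned, to -0.37 (adjusted p = 0.871), and without that library it was 0.73 (adjusted p = 0.175). Gpx4 (ENSMUSG00000075706), which reduces lipid hydroperoxides in membranes and restrains ferroptosis, was at 62.5, 45.6 and 44.3 FPKM against 39.8, 45.9 and 50.2 (log2 fold change -0.17 ± 0.15). It shares 55.3% of its stretches with the pseudogene Gpx4-ps2, and the sum of both also overlapped, at 104 to 151 against 100.04 to 121 CPM. Gpx7 and Gpx8, peroxidases of the endoplasmic reticulum, were at 1.36 to 4.43 against 2.55 to 3.53 FPKM and at 4.54 to 7.23 against 5.31 to 8.06 FPKM.

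Gsr (ENSMUSG00000031584, chromosome 8, 33652523 to 33698163) encodes glutathione reductase, which regenerates reduced glutathione with NADPH. Its level was 53.8, 42.0 and 33.9 FPKM in 5-Fu and 29.0, 31.4 and 26.1 FPKM in 5-Fu+BBR. The groups did not overlap, although 5-Fu replicate 3 came close to 5-Fu+BBR replicate 2 (1.5-fold, log2 fold change -0.58 ± 0.16, adjusted p = 0.166 by edgeR). DESeq2 gave an adjusted p of 0.0281, in a range of 0.0281 to 0.82. Against 5-Fu+BBR replicate 1 alone the log2 fold change was -0.53.

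The 3 genes of glutathione synthesis all had negative log2 fold changes of small size. Gclc (ENSMUSG00000032350), the catalytic subunit of glutamate-cysteine ligase, was at 16.3, 14.9 and 11.3 FPKM in 5-Fu and 11.4, 10.1 and 12.6 FPKM in 5-Fu+BBR, a log2 fold change of -0.31 ± 0.14 (adjusted p = 0.336). Gclm (ENSMUSG00000028124, chromosome 3, 122245557 to 122270732), its modifier subunit, was at 8.29, 8.88 and 6.7 FPKM against 5.95, 6.47 and 6.87 (log2 fold change -0.30 ± 0.10, adjusted p = 0.228). Its groups overlapped in FPKM and not in CPM. Gss (ENSMUSG00000027610), glutathione synthetase, was at 21.5, 19.0 and 17.3 FPKM against 14.8, 15.8 and 18.4 (log2 fold change -0.24 ± 0.12, adjusted p = 0.382). In FPKM, 5-Fu replicate 3 was the lowest of its group in all 3 genes and within or near the range of 5-Fu+BBR. In CPM the lowest 5-Fu library of Gss was replicate 2, at 125.6 beside 130.8 in replicate 3.

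**Figure D4:**
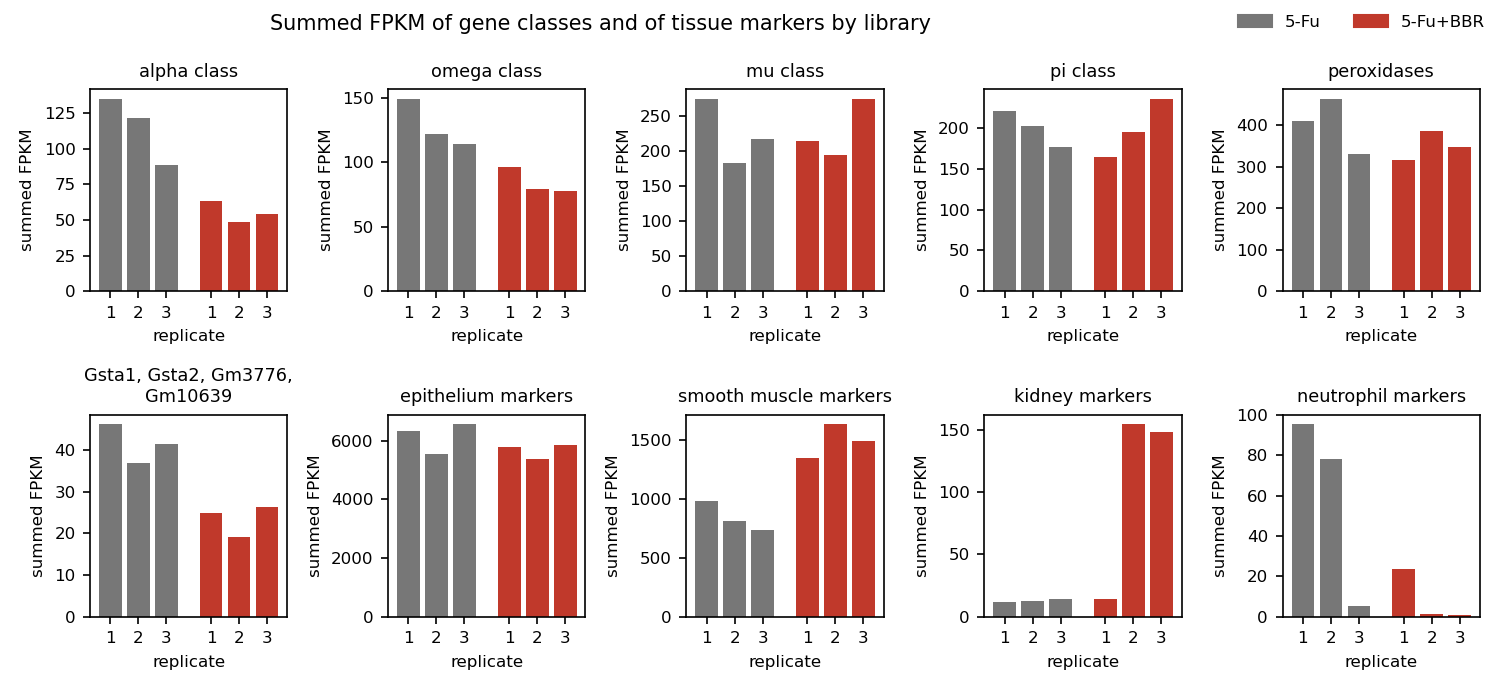
Summed FPKM per library of 5 glutathione gene classes, of Gsta1 with its near copies, and of 4 lists of tissue markers, grey for 5-Fu and red for 5-Fu+BBR. The alpha and omega sums are lower in each 5-Fu+BBR library, and the omega sum is nearly all Gsto1. The epithelium sums overlap between 5357 and 6559 FPKM, and the kidney sum is high in 5-Fu+BBR replicates 2 and 3.

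Beyond these enzymes, 51 other genes of glutathione and thiol metabolism were listed: the breakdown of glutathione, cystine and cysteine supply, export of conjugates, the glyoxalase, glutaredoxin and thioredoxin systems, NADPH supply, related transferase-like enzymes and the NRF2 pathway. Of these 50 were tested, and 0 passed over all genes by edgeR. At an unadjusted p under 0.05, 7 were lower (14%, beside 6.08% of all genes) and 4 higher (8%, beside 9.48%). The median log2 fold change was -0.07. DESeq2 called 3 of them, Txnrd1, Cdo1 and Anpep, a share of 6% that lies near the 6.35% of all genes.

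Txnrd1, thioredoxin reductase of the cytosol and a known NRF2 target, was at 35.0, 38.0 and 27.6 FPKM in 5-Fu and 24.5, 19.1 and 22.5 FPKM in 5-Fu+BBR, a log2 fold change of -0.60 ± 0.15 (adjusted p = 0.149 by edgeR and 0.00777 by DESeq2). Idh1, which supplies NADPH, was at 70.5, 72.5 and 54.6 against 47.0, 53.6 and 54 FPKM, a separation that was narrow at 5-Fu replicate 3 (log2 fold change -0.35 ± 0.11). Abcc1, an exporter of glutathione conjugates, was at 2.44, 2.71 and 1.8 against 1.74, 1.85 and 1.65 FPKM (log2 fold change -0.40 ± 0.13). Adh5, which reduces S-nitrosoglutathione, was at 9.42, 10.2 and 7.42 against 6.48, 7.37 and 7.6 FPKM (log2 fold change -0.33 ± 0.11). In these 4 genes, as in Gsr and Gclm, 5-Fu replicate 3 was the 5-Fu library nearest to 5-Fu+BBR.

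The other pair among the 6 with the smallest p was higher in 5-Fu+BBR. Cdo1, which oxidises cysteine and so draws on the pool for glutathione, was at 12.4, 10.3 and 9.75 FPKM in 5-Fu and 15.6, 22.5 and 17.3 FPKM in 5-Fu+BBR, a log2 fold change of 0.76 ± 0.16 (adjusted p = 0.113 by edgeR and 0.00329 by DESeq2). Anpep, an aminopeptidase that splits the dipeptide left from glutathione, was at 4.99, 3.03 and 2.72 against 7.71, 7.31 and 6.89 FPKM (log2 fold change 1.03 ± 0.22, adjusted p = 0.121 by edgeR and 0.00191 by DESeq2). The groups did not overlap for either gene, and for Anpep 5-Fu+BBR replicate 1 was the highest. In sum the smooth muscle, adipocyte, lymphocyte and macrophage markers were also higher in each 5-Fu+BBR library than in each 5-Fu library. For adipocyte markers the sums were 7.14, 18.9 and 6.03 FPKM in 5-Fu and 68.1, 132 and 71.6 in 5-Fu+BBR. The part of other tissues in Cdo1 and Anpep was not tested. The cystine transporter gene Slc7a11 and the NRF2 gene Nfe2l2 had log2 fold changes of -0.01 ± 0.28 and 0.12 ± 0.14, with groups that overlapped.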

How the data were processed

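RNA-seq of colon from 6 libraries, 3 per group, was analysed. Per the submitters' processing notes, which name tools with no role or order, these include cutadapt 1.9, HISAT2 2.0.4, UMI-tools, StringTie 1.3.4d, edgeR, DESeq2 and the build GRCm38. The deposited table gives, per the file headers, an FPKM value and a count per gene and library. The deposited counts are whole numbers and were treated as estimated counts, 53824752 to 63831168 per library, and no source used here states how they were made or whether duplicates were removed by UMI.

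The counts were fitted with edgeR 4.0.16 (R 4.3.3; TMM, filterByExpr, robust quasi-likelihood test, group as the only term, Benjamini-Hochberg adjustment over 20101 genes at 0.05), after a check on simulated data. Alternatives were DESeq2 1.42.0, limma 3.58.1, other filters and scalings (counts divided by 4 among them, since an estimate from coverage can give 1 fragment several counts), a replicate block and leaving out libraries. A fit without 5-Fu+BBR replicates 2 and 3 was chosen after seeing the data, and it assumes that the lone library varies like the 5-Fu ones. Sums and levels use FPKM. With 3 against 3 libraries an exact permutation test cannot go below 0.1, so none is given. Sequence sharing was counted over 75-base stretches of GENCODE M21 transcripts (GRCm38), with which the coordinates of 33 of the 36 genes were identical.

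The members and lists were chosen with earlier results of these data known. Values in every library are given for the 12 genes with the smallest p, the highest of each class, Gclc, Gclm, Gss and Gsr, and 6 other pathway genes. Gpx2, Gpx3, Gpx4, Gstp3, Gsta3 and Gm3776 were added after their values were seen.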

Additional observations from a re-analysis of the deposited data

How the results depend on the processing

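Over the 34 tested genes and 16 alternatives, 30 of 540 log2 fold changes reversed, in 14 genes, and 8 newly passed the threshold. As 0 genes passed at first, no call could be lost. The number of all genes called, 15, was 113 with the replicate block, 77 without a filter, 1226 by DESeq2, 0 to 159 when 1 library was left out (0 without 5-Fu replicate 1 or 5-Fu+BBR replicate 2, 159 without 5-Fu replicate 2, 53 without 5-Fu replicate 3 and 54 without 5-Fu+BBR replicate 1) and 0 without 5-Fu+BBR replicates 2 and 3. The number of glutathione genes called, 0, was 1 with the replicate block (Gsta4, adjusted p = 0.038), 6 by DESeq2 and 0 to 1 when 1 library was left out (Gsta1, without 5-Fu replicate 2). That of the other pathway genes, 0, was 3 by DESeq2. Same-numbered libraries correlated at 0.0579, 0.0242 and 0.123 in their deviations from the group means, and differently numbered ones at -0.146 to 0.104. The numbers were not taken as pairs, though these values do not settle whether the libraries were paired. At an unadjusted p under 0.05, the 3 higher genes became 2 to 6 and the 5 lower ones 4 to 8 when 1 library was left out, while the share of all genes ranged from 5.7% to 10.6% higher and from 3.07% to 7.34% lower. They became 0 and 2 without 5-Fu+BBR replicates 2 and 3 (3.56% and 2.55% of all genes). In that last fit, which has fewer samples, log2 fold changes reversed to -0.0157 for Gsta3, -0.16 for Gstm4, 0.0761 for Gstm5, -0.37 for Gpx3, -0.19 for Gstp1, -0.22 for Gstp2 and -0.32 for Gstt2. Gstm5 (-0.01) was at 0.00346 with at least 50 counts in 3 libraries, 0.00649 by limma-voom and 0.00439 with counts divided by 4, and the cause was not tested. When 1 library was left out, the log2 fold change turned for 12 genes: Gsta2 ranged from -0.40 to 0.0257, Gstk1 from -0.39 to 0.0376, Mgst1 from -0.00399 to 0.29, Gstm1 from -0.35 to 0.0731, Gstm2 from -0.0541 to 0.22, Gstm4 from -0.13 to 0.16, Gstm5 from -0.13 to 0.0935, Gsto2 from -0.52 to 0.0328, Gpx7 from -0.0123 to 0.84, Gstp1 from -0.0722 to 0.13, Gstp2 from -0.16 to 0.15 and Gstt2 from -0.11 to 0.16. Gpx2 (-0.66) and Gstp3 (-0.69) were at -0.98 and -1.04 without 5-Fu replicate 3.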
